A study of Mus musculus with 8 samples.

Results

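The cytosolic ribosomal protein genes were followed in mast cells (MC) from tumors and from the peritoneal cavity. Members were the array features (transcript clusters) whose annotation gave exactly 1 gene symbol of the form Rpl or Rps with a number, including Rplp, and an a or x ending. This gave 34 genes out of 24111 clusters, 20 of the large and 14 of the small ribosomal subunit. Of the 75 RefSeq coding symbols with this form, 7 were present only in clusters that named several genes, and 34 were not analysed here. Rpl41 had 2 such clusters, of which the brighter was used.

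The MC came from C57BL/6J mice that all carried subcutaneous Panc02 tumors, a pancreatic cancer line of the mouse. Mice received 40 mg/kg DC101, an antibody against the VEGF receptor 2 of the mouse, or a placebo that is not described further, from a tumor volume of 100 mm3 on. The 4 groups were tumor MC under DC101, tumor MC under placebo, peritoneal MC under DC101 and peritoneal MC under placebo, with 2 arrays each. MC were sorted on DAPI, CD45, CD11b, CD117 and FcεRI, and peritoneal cells had been collected by lavage. Nothing in the sources says whether the 2 arrays of a group came from separate mice or from pools, and age was not given. The p-values therefore measure the spread between these arrays, which may be technical.

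Ribosomal proteins assemble with ribosomal RNA into a small subunit, which reads the mRNA, and a large subunit, which joins amino acids. Their mRNAs are among the most abundant of most cells and begin with a run of pyrimidines, the TOP motif, through which mTORC1 and LARP1 control their translation. In MC, as in other cells, the demand for ribosomes follows growth and protein synthesis. Many of these genes have processed pseudogenes or near-identical copies elsewhere in the genome, so signal of a cluster can be shared with copies, and each single gene below is uncertain in this respect.

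The start of 7 genes is shown because transcription at a pyrimidine run is the feature these genes are known for, and because the 7 span the responses described below. Rps24, Rpl6 and Rps3 had lower values in peritoneal MC under DC101, Rpl38 and Rps27 did not, and Rps7 and Rpl26 were higher in tumor MC. The sequences are from RefSeq on GRCm38.p6 and hold 45 bases before and 15 bases from the annotated start on, in the direction of the gene. Capitals mark the pyrimidine run CTTTC, the run CTTTT, the run CTTCC or the run CTCTT where it lies within 20 bases of the start, and the same letters further upstream are left in lower case. The windows are chr14:24490633-24490692 on the plus strand for Rps24, chr5:121204456-121204515 on the plus strand for Rpl6, chr7:99483695-99483754 on the minus strand for Rps3, chr11:114668535-114668594 on the plus strand for Rpl38, chr3:90213634-90213693 on the minus strand for Rps27, chr12:28635939-28635998 on the minus strand for Rps7 and chr11:68901521-68901580 on the plus strand for Rpl26.
Rps24: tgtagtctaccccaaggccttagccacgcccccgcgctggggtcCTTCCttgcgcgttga
Rpl6: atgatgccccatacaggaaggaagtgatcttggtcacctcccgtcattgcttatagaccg
Rps3: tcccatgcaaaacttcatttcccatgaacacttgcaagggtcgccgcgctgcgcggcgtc
Rpl38: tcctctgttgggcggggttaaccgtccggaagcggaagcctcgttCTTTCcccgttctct
Rps27: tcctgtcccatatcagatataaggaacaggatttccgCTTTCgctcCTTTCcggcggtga
Rps7: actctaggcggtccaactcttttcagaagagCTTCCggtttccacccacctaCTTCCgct
Rpl26: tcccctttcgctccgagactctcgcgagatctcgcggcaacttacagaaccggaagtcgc

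A promoter was matched for 28 of the 34 members, and 5 of these had several annotated starts, of which any could hold the letters. At least 1 of the 4 pyrimidine runs lay within 20 bases of a start, on the strand of the gene, in 15 of the 28 members (53.6%), against 23.3% of 27025 genes. The letters CCGGAAG, which ETS factors bind, were present on either strand within the 300 bases around the start in 13 members (46.4%), against 9.93% of all genes. The reverse complement of CCGGAAG contains CTTCC, so that these 2 searches overlap. The letters AAGATGGCG, which YY1 binds, were present in 1 member (3.57%), against 1.64% of all genes. Among the matched members, 18 had lower values in peritoneal MC under DC101 without overlap of the arrays. Of these, 8 had a pyrimidine run within 20 bases of a start, against 7 of the 10 other matched members. Such a run need not begin at the start, so the counts do not give the presence of a TOP motif. These matches describe the letters of the windows and were not tested against the expression values.

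Each value is a log2 expression value made with RMA, which has no detection call, and levels of different clusters depend on their probes. The members covered nearly the whole scale, with means over the 8 arrays between 2.65 and 11.83 log2 units. The mean exceeded 9 in 13 members (38.2%), against 1.99% of all clusters, and 18 members lay above the upper quartile of all clusters (5.65). Another 13 lay between this quartile and the median of 3.48, and Rps14, Rps18 and Rps20 lay below the median. The brightest members were Rps9, a protein at the mRNA entry of the small subunit, at 11.83, and Rpl7a at 11.59. Rps20, a protein of the head of the small subunit, had the lowest mean, 2.65.

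The brightest members varied least. The SD between arrays of a group had a median of 0.10 log2 units over the 18 members above the upper quartile, against 0.32 over the 16 other members, with 0.24 over all clusters. Across the 34 members, the mean value and this SD had a Pearson correlation of −0.69 and a Spearman correlation of −0.75, which are given as a description because all points come from the same 8 arrays. For 27 members, the clusters next in number (10 on either side) belonged to genes on the chromosome of the gene itself. For Rplp0, Rpl3, Rpl7a, Rpl15, Rpl35, Rps18 and Rpl41 the neighbouring clusters belonged to another chromosome, and whether their probes read a copy of the gene was not tested.

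The 10 MC markers looked at, among them Kit, Fcer1a, Cpa3 and Tpsb2, were all measured, and the lowest value of any of them on any array was 6.13. Over all clusters, 0 passed an adjusted p of 0.05 for DC101 in tumor MC, 1105 (4.58%) in peritoneal MC and 7124 (29.5%) between tumor and peritoneal MC, by limma with Benjamini-Hochberg adjustment over the 24111 clusters. Replicate arrays correlated at 0.974 to 0.986 over all clusters and at 0.990 to 0.996 over the members, and array medians lay between 3.34 and 3.46. RNA was from sorted populations, in which fewer cells of a type and less RNA per cell cannot be told apart.

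Most ribosomal protein genes had lower values in peritoneal MC of DC101 treated mice. The log2 difference between DC101 and placebo was negative in 28 of 34 members (82.4%), against 52.4% of all clusters, and its median was −0.28, against −0.02 for all clusters. The negative differences ranged from −0.02 for Rps9 to −1.39 for Rps24, and the positive ones from 0.01 for Rpl38 to 1.44 for Rps20. In 21 members (61.8%), both DC101 arrays were below both placebo arrays, which was the case for 24.6% of all clusters. The opposite order was found in 2 members, Rps20 and Rps28, against 21.5% of all clusters. Bright members varied less between arrays, and the shares over all clusters were not matched for brightness. The DC101 arrays were lower without overlap in 13 of the 18 members above the upper quartile and in 8 of the 16 others.

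Only Rps24 passed an adjusted p of 0.05 among the 34 members (2.94%), against 2.1% of all clusters that were lower and 2.48% that were higher. An unadjusted p under 0.05 was found for 7 members that were lower (20.6%, against 9.73% of clusters) and for 2 that were higher (5.88%, against 9.17% of clusters). With only 2 arrays in a group, the median SE of a member was 0.21, and the arrays set the precision. The plot of all values by array shows the lower values on both peritoneal DC101 arrays.

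**Figure D1:**
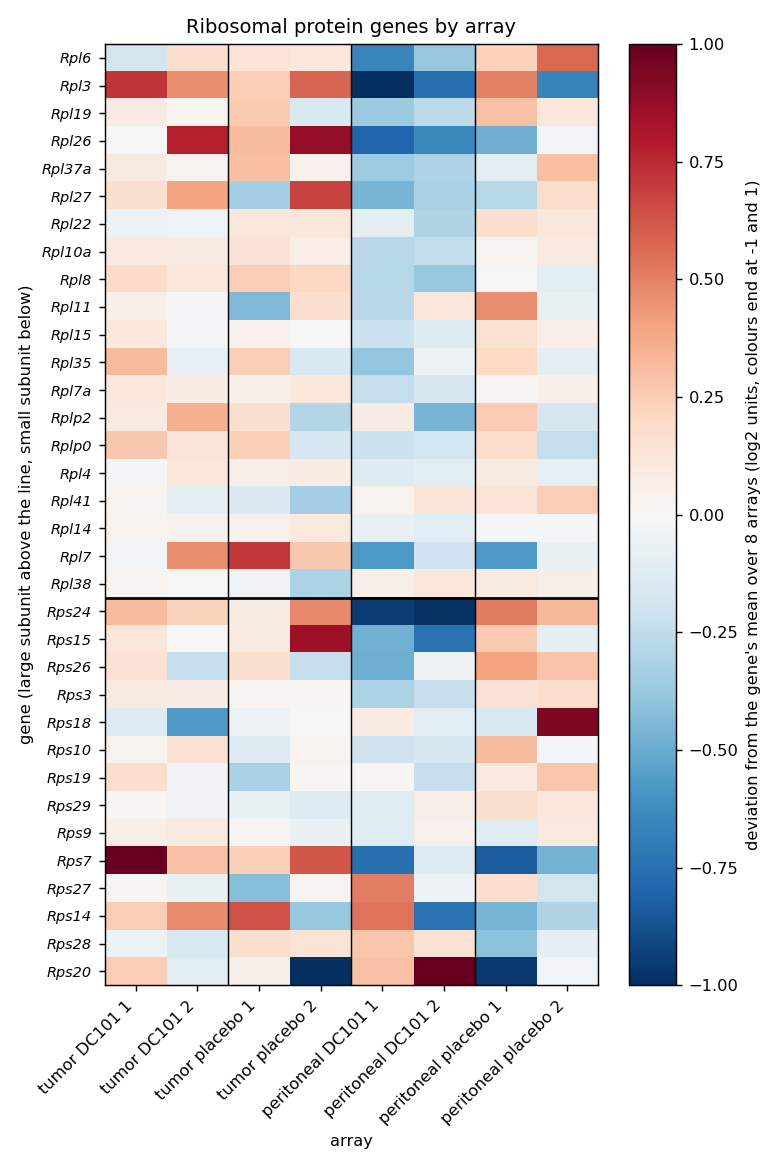
Deviation of each ribosomal protein gene (rows, ordered by the peritoneal response within the large and the small subunit) from its own mean over 8 arrays, in log2 units, for each array (columns). Colours end at −1 and 1. On the peritoneal DC101 arrays 25 and 27 of 34 genes lay below their own mean, against 6 to 17 on the other arrays.

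The median deviation of the members from their own means was −0.22 and −0.18 on the peritoneal DC101 arrays, against 0.12 and 0.02 on the peritoneal placebo arrays. In tumor MC it was 0.09 and 0.06 on the DC101 arrays, against 0.08 and 0.04 on the placebo arrays. The 2 peritoneal DC101 arrays were thus apart from the other 6, whose medians overlapped between groups. The same median over all clusters lay between −0.02 and 0.01 on each array.

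Rps24, a small subunit protein that is needed to mature the precursor of 18S ribosomal RNA and is mutated in human Diamond-Blackfan anaemia, fell in peritoneal MC under DC101. Its values were 6.66 and 6.62 on the DC101 arrays, against 8.13 and 7.94 on the placebo arrays. This was a log2 fold change of −1.39 ± 0.21 (SE), 2.62-fold lower, with an adjusted p of 0.00939 (limma). In tumor MC, Rps24 was 7.93 and 7.83 under DC101, against 7.68 and 8.09 under placebo, so that the groups overlapped. The difference between the compartments in the response to DC101 was 1.39 ± 0.30 (SE) and did not pass the test (adjusted p = 0.0759). The fall in peritoneal MC passed with any single array left out and was lost only without moderation of the variance (adjusted p = 0.0801, with a range of 0.00131 to 0.0801 over all alternatives).

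Rpl6, a large subunit protein, showed the next lowest difference, −0.92 ± 0.22 (SE), and did not pass the test (adjusted p = 0.0532, limma). It had 3.72 and 3.997 under DC101 and 4.61 and 4.95 under placebo in peritoneal MC. In tumor MC it had 4.20 and 4.55 under DC101 and 4.52 and 4.48 under placebo. The groups were apart in peritoneal MC and overlapped in tumor MC. Rpl6 was among the dimmer members, with a mean over the 8 arrays of 4.38. Over the alternatives, the adjusted p of the peritoneal difference ranged from 0.0455 to 0.216.

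Rpl3, a protein next to the peptidyl transferase centre, had 6.29 and 6.62 under DC101 and 7.88 and 6.71 under placebo, a difference of −0.84 ± 0.35 (SE). The placebo arrays had an SD of 0.83, against 0.23 for the DC101 arrays, and 1 of them was close to the DC101 arrays. Rps15, whose tail reaches the decoding centre, had 3.11 and 2.85 under DC101 and 3.85 and 3.498 under placebo. Rps26, which contacts mRNA on the exit side, had 7.65 and 8.09 under DC101 and 8.54 and 8.43 under placebo. Neither pair of groups overlapped, and the differences were −0.69 ± 0.28 for Rps15 and −0.61 ± 0.24 for Rps26 (SE). Rps15 was dim, with a mean over the 8 arrays of 3.595, near the median of all clusters.

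Rpl19, a large subunit protein near the polypeptide exit tunnel, had 4.15 and 4.25 under DC101 and 4.80 and 4.63 under placebo in peritoneal MC. Rps3, which forms part of the mRNA entry channel, had 10.22 and 10.30 under DC101 and 10.69 and 10.72 under placebo. For both genes the groups were clearly separated, with differences of −0.52 ± 0.21 for Rpl19 and −0.44 ± 0.18 for Rps3 (SE), and adjusted p-values of 0.224 and 0.230 (limma). In tumor MC, the values of Rps3 were 10.63 and 10.62 under DC101 and 10.57 and 10.56 under placebo.

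Rplp0 and Rplp2, which form the stalk that recruits elongation factors, had differences of −0.17 ± 0.23 and −0.23 ± 0.27 (SE), and their arrays overlapped. Rpl11, which with Rpl5 carries the 5S ribosomal RNA and can bind MDM2, had −0.28 ± 0.28. Rpl10a of the L1 stalk had 10.65 and 10.68 under DC101 and 10.96 and 11.02 under placebo in peritoneal MC, a difference of −0.32 ± 0.18 (SE) without overlap. Rpl4 and Rpl35, proteins of the exit tunnel, had −0.12 ± 0.19 and −0.27 ± 0.25, and Rpl8, next to the peptidyl transferase centre, had −0.28 ± 0.18. Rpl26, also of the exit tunnel, had a larger difference of −0.46 ± 0.31 (SE) without overlap. None of these 8 genes passed the test.

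Among members with a known phenotype, Rps19, the gene most often mutated in Diamond-Blackfan anaemia, had a difference of −0.29 ± 0.21 and Rpl22, which mice need for the development of αβ T cells, had −0.33 ± 0.19 (SE). Rpl38, which is mutated in the Tail-short mouse, had 11.60 and 11.66 under DC101 and 11.63 and 11.60 under placebo in peritoneal MC. It was the member of the large subunit whose difference was not negative (0.01 ± 0.19). The 4 peritoneal arrays of Rpl38 were nearly level.

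The members with higher values under DC101 in peritoneal MC all belonged to the small subunit, apart from Rpl38. Rps20 had 2.94 and 4.24 under DC101 and 1.68 and 2.62 under placebo, a difference of 1.44 ± 0.51 (SE, adjusted p = 0.159, limma). Rps28, which lies on the mRNA exit side, had 5.06 and 4.94 under DC101 and 4.37 and 4.68 under placebo, a difference of 0.47 ± 0.20 (SE, adjusted p = 0.237). In both genes the groups did not overlap, but Rps20 is the dimmest member and its DC101 arrays had an SD of 0.92. Rps7, Rps14 and Rps27 had differences of 0.21 to 0.28 with overlapping arrays.

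**Figure D2:**
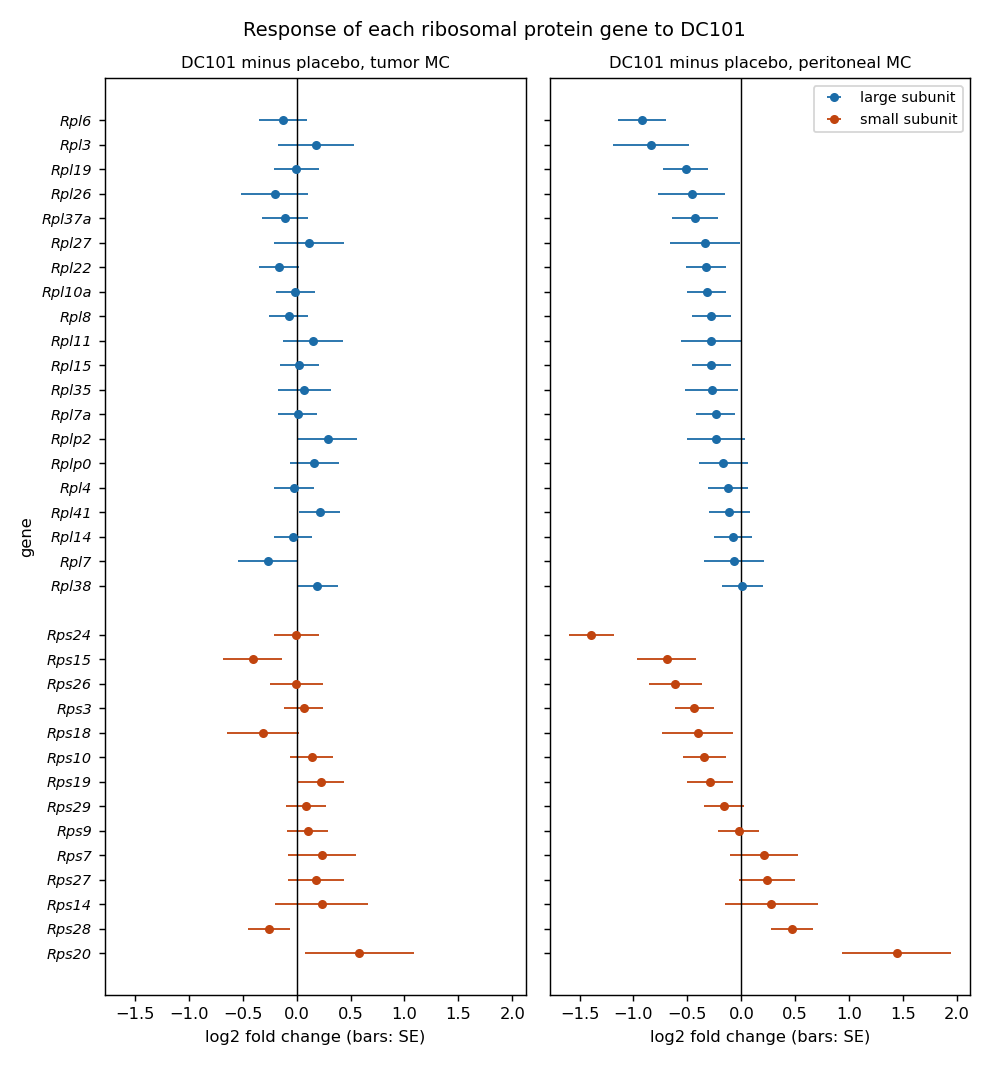
Log2 fold change of DC101 against placebo with its SE (limma, 2 arrays per group) for each of the 34 genes in tumor MC (left) and peritoneal MC (right), with large subunit genes above small subunit genes. In peritoneal MC 28 of 34 points lie left of 0, against 15 of 34 in tumor MC.

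The large and the small subunit had similar medians in peritoneal MC. The median difference was −0.28 over the 20 large subunit genes, of which 19 were negative and 14 had lower DC101 arrays without overlap. Over the 14 small subunit genes the median was −0.23, with 9 negative, 7 lower without overlap and 2 higher without overlap. The small subunit varied more, with an SD over genes of 0.66, against 0.24 for the large subunit. The large minus small difference of medians was −0.05 and turned to 0.09 without the peritoneal DC101 replicate 1, so that no direction is given. With members above the upper quartile alone it was 0.13. In tumor MC the medians under DC101 were 0.004 for the large and 0.09 for the small subunit. For the difference between compartments they were 0.32 and 0.19. For tumor against peritoneal MC they were 0.16 (17 of 20 positive) and 0.04 (8 of 14 positive). The large minus small differences were −0.09, 0.13 and 0.12 in this order and were not tested.

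Bright and dim members had like medians. The median difference was −0.28 over the 18 members above the upper quartile, with 16 negative, and −0.28 over the 16 dimmer members, with 12 negative. Pearson and Spearman correlations between mean value and difference were −0.12 and 0.08 over the 34 genes. For the 7 members whose neighbouring clusters lay on another chromosome, all 7 differences were negative, with a median of −0.27. For the other 27 the median was −0.28, with 21 negative.

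**Figure D3:**
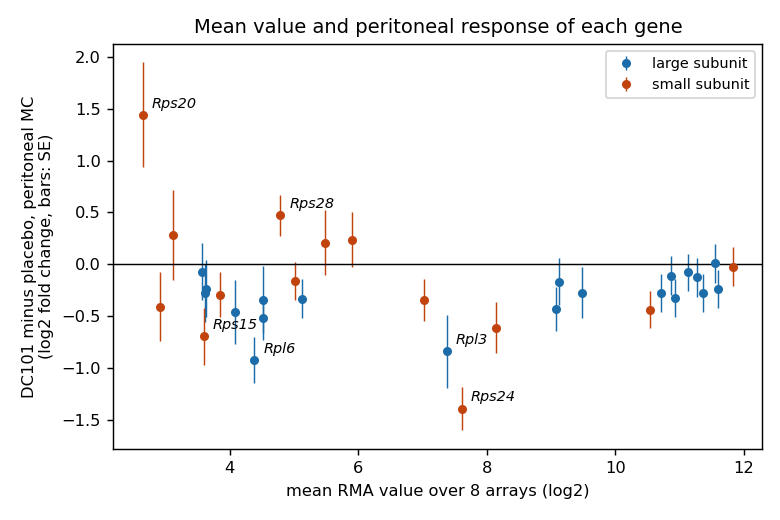
Mean RMA value over 8 arrays (log2) against the log2 fold change of DC101 against placebo in peritoneal MC with its SE, for the 34 genes by subunit. The dim genes spread widely from Rps20 at 1.44 to Rpl6 at −0.92, and 13 genes with a mean above 9 lie between −0.44 and 0.01.

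The 7 clusters that named several genes, and so were not members, covered Rpl12, Rpl13, Rpl24, Rpl35a, Rpl39, Rps13 and Rps25. All 7 had lower means under DC101 in peritoneal MC, 4 of them without overlap of the arrays, against 52.4% and 24.6% of all clusters, and 0 passed the test. Their median difference was −0.12. The second cluster of Rpl41, a gene for a very short basic protein, had 6.81 and 6.98 under DC101 and 7.21 and 7.42 under placebo, a difference of −0.42, against −0.11 for the cluster used here.

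In tumor MC, differences of ribosomal protein genes under DC101 went in either direction. The difference was positive in 19 (55.9%, against 45.3% of all clusters) and negative in 15 members, with a median of 0.04, against −0.03 for all clusters, and 0 members passed the test (0% of all clusters did). At an unadjusted p under 0.05 there were also 0 members, against 5.04% of all clusters. The DC101 arrays were above the placebo arrays in 6 members (17.6%, against 15.7% of clusters) and below them in 4 (11.8%, against 20.6%).

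Rps20 had the highest difference, 0.58 ± 0.51 (SE), with 2.89 and 2.54 under DC101 and 2.71 and 1.56 under placebo. Rps15 had the lowest, −0.41 ± 0.28, with 3.71 and 3.601 under DC101 and 3.68 and 4.45 under placebo. Both pairs of groups overlapped. Next were Rplp2 at 0.29 ± 0.27 with overlapping arrays and Rps18 at −0.32 ± 0.33 (SE), lower without overlap. Rps28 was lower without overlap, with 4.73 and 4.62 under DC101 and 4.94 and 4.92 under placebo, the opposite order to peritoneal MC. The difference between the compartments for Rps28 was −0.73 ± 0.28 (SE) and did not pass the test (adjusted p = 0.307, limma).

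The difference between the responses of tumor and peritoneal MC was positive in 29 of 34 members (85.3%), against 49.3% of all clusters. Its median was 0.29, against −0.01 for all clusters. This comparison uses the same peritoneal arrays as the one above and gives no further evidence on them. No member passed an adjusted p of 0.05 in it (0.805% of all clusters did), and 3 members had an unadjusted p under 0.05 (8.82%, against 13.1% of all clusters), namely Rps24 and Rpl6 with positive and Rps28 with negative values. Of the 21 members that were lower in peritoneal MC without overlap, 15 overlapped in tumor MC, 4 were higher there and 2 were lower.

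Between compartments, 5 of 34 members (14.7%) passed the test for tumor against peritoneal MC, all with higher values in tumor MC, against 16.3% of all clusters that were higher and 13.2% that were lower. The share of members was thus close to that of all clusters in the upward direction, and 0 members passed as lower. The lowest differences were −0.45 for Rps20, −0.38 for Rps18 and −0.28 for Rpl41. The median difference was 0.11, against −0.03 for all clusters. The direction of this median depends on the scaling. It was 0.01 with cyclic loess, with 18 of 34 members positive, and −0.01 with 15 positive when arrays were centred on bright clusters, against 25 positive here. Centring on bright clusters moved the median of all clusters to −0.16. Relative to all clusters, the members' median was 0.14 here, 0.02 with cyclic loess and 0.14 with that centring.

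Rps7, a small subunit protein that can bind MDM2, was higher in tumor MC by 1.09 ± 0.22 (SE, 2.14-fold, adjusted p = 0.00515, limma). It had 6.52 and 5.77 under DC101 and 5.72 and 6.10 under placebo in tumor MC. In peritoneal MC it had 4.72 and 5.35 under DC101 and 4.65 and 5.01 under placebo. All 4 tumor arrays were above all 4 peritoneal arrays, with little difference by treatment.

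Rpl26, a protein at the exit tunnel that is modified by UFM1, was higher in tumor MC by 0.98 ± 0.22 (SE, adjusted p = 0.00847, limma). It had 4.09 and 4.86 under DC101 and 4.39 and 4.96 under placebo in tumor MC. In peritoneal MC it had 3.29 and 3.44 under DC101 and 3.59 and 4.06 under placebo. The compartments did not overlap, although the highest peritoneal array was close to the lowest tumor array. Rpl26 was dim, with a mean over the 8 arrays of 4.08, and RMA values of dim members cannot be told from background.

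Rpl7, a large subunit protein, had 3.55 and 4.04 under DC101 and 4.28 and 3.84 under placebo in tumor MC. In peritoneal MC it had 3.001 and 3.36 under DC101 and 3.005 and 3.501 under placebo, below all tumor arrays. The difference was 0.71 ± 0.20 (SE, adjusted p = 0.0230, limma). Rpl7 was dim, with a mean over the 8 arrays of 3.57, against a median of 3.48 over all clusters. Rpl3 was higher in tumor MC by 1.004 ± 0.25 (SE, adjusted p = 0.0140), with 8.09 and 7.84 under DC101 and 7.62 and 7.96 under placebo in tumor MC, and the peritoneal placebo array at 7.88 lay within this range. The clusters next to that of Rpl3 belonged to another chromosome, and without the members of this kind 4 passed the test. Rps24 was higher in tumor MC by 0.54 ± 0.15 (SE, adjusted p = 0.0213), although its peritoneal placebo arrays overlapped the tumor arrays.

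Within treatments, the tumor minus peritoneal difference of Rps24 was 1.24 ± 0.21 under DC101 (SE, adjusted p = 0.00260, limma) and −0.15 ± 0.21 under placebo (adjusted p = 0.706). Rps7 passed within either treatment, with 1.11 under DC101 and 1.08 under placebo. Rpl26 and Rpl3 passed under DC101 (adjusted p = 0.0324 and 0.0138) and not under placebo (adjusted p = 0.0952 and 0.404). Rpl7 passed in neither.

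Over the members, 4 (11.8%) were higher in tumor MC under DC101 and 1 (2.94%) under placebo, against 12.4% and 11.3% of all clusters. The median tumor minus peritoneum difference was 0.31 under DC101 and −0.01 under placebo. These values share arrays with the comparisons of DC101 and placebo.

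Without moderation of the variance, the calls of Rps7 (adjusted p = 0.0661), Rpl26 (0.0808), Rpl3 (0.113) and Rpl7 (0.110) were lost, and that of Rps24 was kept. The count of members passing was then 6, all higher in tumor MC, so that members not called in the main fit newly passed. The call of Rps24 was lost with cyclic loess (0.40, adjusted p = 0.0831) and with centring on bright clusters (0.42, adjusted p = 0.0689). With single arrays left out, the number of members passing for tumor against peritoneum was 3 without either tumor DC101 replicate 1 or 2, or without peritoneal DC101 replicate 1. The call was lost for Rps24 without tumor placebo replicate 2, either tumor DC101 replicate or peritoneal placebo replicate 2 (adjusted p = 0.0540 to 0.0838). It was lost for Rpl7 without tumor placebo replicate 1, tumor DC101 replicate 2, peritoneal placebo replicate 1 or peritoneal DC101 replicate 1 (0.0761 to 0.0911), and for Rpl3 without tumor DC101 replicate 1 or peritoneal DC101 replicate 1 (0.0557 and 0.0509). The second cluster of Rpl41 was higher in tumor MC (0.62, adjusted p = 0.00713), whereas the cluster used had −0.28, so that the clusters of this gene disagreed.

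**Figure D4:**
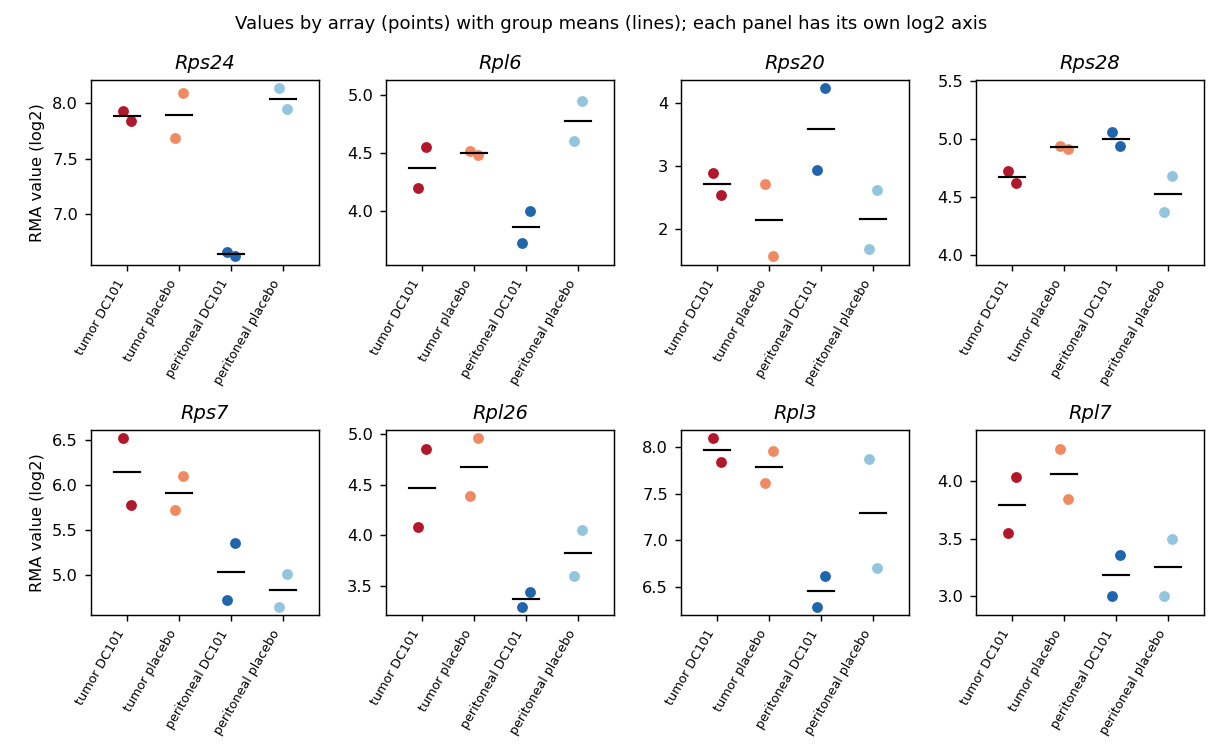
RMA values (log2) of 8 genes on each array (points) with the group mean (lines) for tumor DC101, tumor placebo, peritoneal DC101 and peritoneal placebo MC, with a separate axis for each gene. Rps24 lies at 6.66 and 6.62 on the peritoneal DC101 arrays and at 7.68 or above on the other 6, and Rps7 separates tumor from peritoneal MC.

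Other parts of the translation apparatus were looked at as lists. Of 3 further ribosomal protein genes outside the symbol pattern, 0 passed the test for DC101 in peritoneal MC. Their differences were −0.33 for Rpsa, −0.23 for Rps3a1 and 0.57 for Fau. Without overlap of the arrays, 2 of the 3 were lower and 1 was higher. Of 7 paralogs of ribosomal protein genes with restricted expression, such as Rpl3l and Rpl39l, 0 passed, with a median of −0.05. Among them 1 was lower and 0 were higher without overlap. Of 6 elongation factors and associated genes, 0 passed (median −0.13), with 3 lower and 1 higher without overlap. Of 23 initiation factors 0 passed (median −0.10), with 12 lower and 7 higher without overlap. Over all clusters, 24.6% were lower and 21.5% higher without overlap.

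Dedicated chaperones of ribosomal proteins had 2 of 8 genes that passed the test as lower in peritoneal MC under DC101, and a median of −0.44. The shares passing over all clusters were 2.1% as lower and 2.48% as higher. Of the 8 genes, 7 had negative differences, 5 of them without overlap of the arrays, against 24.6% of all clusters. Bccip, a chaperone of Rpl23, had 6.89 and 7.27 under DC101 and 8.03 and 7.96 under placebo (−0.92 ± 0.20, adjusted p = 0.0378, limma). Ltv1, an assembly factor of the small subunit head, had 6.01 and 6.195 under DC101 and 7.23 and 7.08 under placebo (−1.06 ± 0.21, adjusted p = 0.0256). In both, the DC101 arrays were well below the placebo arrays. The call of Ltv1 was lost without any of the 4 peritoneal arrays, and that of Bccip without any single array other than peritoneal DC101 replicate 2 (adjusted p up to 0.107 for Ltv1 and 0.152 for Bccip).

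Of 69 mitochondrial ribosomal protein genes, which serve a separate ribosome, 1 passed the test as lower in peritoneal MC under DC101 and 0 as higher. Their median was −0.31, and 58 of the 69 differences were negative. Without overlap of the arrays, 38 were lower and 2 were higher. Among all clusters, 24.6% were lower and 21.5% higher in this way, and 2.1% and 2.48% passed the test. The cytosolic members had a close median of −0.28, with 28 of 34 negative and 21 lower without overlap. The lower values were thus not particular to the cytosolic members. Among 16 regulators of TOP mRNAs and mTORC1, 1 fell, with a list median of 0.05. It was Myc, a transcription factor that activates ribosomal protein genes, with 7.21 and 6.69 under DC101 and 8.38 and 8.45 under placebo. Its log2 fold change was −1.47 ± 0.24 (SE, adjusted p = 0.0130, limma), a call that was lost without either peritoneal placebo array or without peritoneal DC101 replicate 2. Larp1 and Mtor had −0.37 and −0.17 and did not pass. In tumor MC, 0 genes of any of these lists passed the test for DC101, as did 0 of all 24111 clusters.

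In tumor against peritoneal MC, 13 of 23 initiation factors were higher and 1 was lower, and 24 of 69 mitochondrial ribosomal protein genes were higher and 0 lower. Of the 8 chaperones, 5 were higher and 1 lower. Of 8 ribosome quality control genes, 4 were higher and 0 lower. The medians were 0.52, 0.36, 0.48 and 0.40 for these lists, against 0.11 for the cytosolic ribosomal protein genes. Of all clusters, 16.3% passed the test as higher in tumor MC and 13.2% as lower.

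Markers of other cell types moved with the same groups. In peritoneal MC under DC101, 6 of 9 T and NK cell markers fell, with a summed linear level of 151 to 183 under DC101 and 830 to 854 under placebo. Of 5 B cell markers, 2 fell, with a summed level of 1250 to 1816 under DC101 and 3007 to 3035 under placebo. Of 9 macrophage markers 2 rose and 1 fell, with a summed level of 6045 to 7789 under DC101 and 3150 to 3716 under placebo. Of 5 eosinophil markers 3 rose, with 448 to 677 under DC101 and 105 to 106 under placebo. Markers are counted here as fallen or risen where they passed the test. In this contrast 2.1% of all clusters passed as lower and 2.48% as higher. Without overlap of the arrays, all 9 T and NK cell markers and all 5 B cell markers were lower under DC101. This order was found in 61.8% of the ribosomal protein genes and 24.6% of all clusters. Of the 9 macrophage markers 7 were higher and 1 was lower without overlap, and of the 5 eosinophil markers 3 were higher and 0 lower. The share of all clusters that were higher in this way was 21.5%. Marker levels of these cell types thus differed between the peritoneal groups in either direction.

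Of 5 mesothelial markers 2 fell, with a summed level of 31.5 to 63.9 under DC101 and 108 to 111 under placebo. Of 8 cell cycle genes 5 fell, with a summed level of 1093 to 1228 under DC101 and 1602 to 1855 under placebo. All 8 cell cycle genes and 3 of the mesothelial markers were lower without overlap of the arrays, against 24.6% of all clusters. The share of all clusters that passed the test as lower was 2.1%. Of 10 MC markers 0 passed the test, but 9 had lower means under DC101, 5 of them without overlap of the arrays, among them Hdc (−0.95) and Kit (−0.67), and the list median was −0.23, against −0.28 for the ribosomal protein genes. They had a summed level of 9713 to 10633 under DC101 and 10974 to 11936 under placebo. RMA gives no zero, so that no marker can be called absent. The part of other cells, or of a shift that MC markers share, in the lower values of the ribosomal protein genes was not tested.

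Between the compartments, 16.3% of all clusters passed the test as higher in tumor MC and 13.2% as lower. All 5 B cell markers were lower in tumor MC, with a summed level of 35.9 to 60.01 in tumor MC and 1250 to 3035 in peritoneal MC. Of 9 macrophage markers 1 was higher and 7 were lower in tumor MC, with 1520 to 2471 in tumor MC and 3150 to 7789 in peritoneal MC. Of 3 epithelial markers, which Panc02 cells could carry, 2 were higher and 1 was lower in tumor MC, with a summed level of 1404 to 2061 in tumor MC and 45.02 to 259 in peritoneal MC. Of 4 fibroblast and endothelial markers 3 were higher and 1 was lower in tumor MC, and of 8 cell cycle genes 7 were higher. Of 9 T and NK cell markers 3 were higher, and of 5 eosinophil markers 4 were lower. The part of these cells in the 5 higher ribosomal protein genes was not tested.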

How the data were processed

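Sorted MC from tumors and peritoneum were measured on Affymetrix Mouse Gene 2.1 arrays, 8 arrays in 4 groups of 2, all mapped from their labels. The deposited log2 values were made by the authors with RMA (background correction, quantile normalization and summary per transcript cluster), whose version is not given in the sources used here, and a shift that all genes share is removed by it. Clusters were named from the platform annotation (21508 with 1 symbol, 566 with several, 2037 with none), and 21399 were found in RefSeq by gene identifier.

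From these values, limma 3.58.1 in R 4.3.3 fitted 1 mean per group over all 24111 clusters (4 residual degrees of freedom, prior 4.93), with contrasts of DC101 minus placebo in either compartment, their difference, and tumor minus peritoneum, overall and within either treatment. Two-sided moderated p-values were adjusted by Benjamini-Hochberg over all clusters, with a threshold of 0.05. A summed level is the sum of values taken back from the log2 scale. The fit was checked on simulated data in which the differences were known. Those differences were larger than the ones of most members, so the check does not cover differences of that size. Figures used matplotlib 3.10.9.

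Members and lists were chosen with earlier results of these data known. Named genes were drawn, per contrast, from the 6 members with the highest and the 6 with the lowest difference. Members called, members at known functional sites and up to 4 genes of each related list were added. Not every member at either end of a contrast is given with its value there. Rpl41, Rps9, Rps27 and Rpl7a are named partly outside this rule, after their values were seen. No further samples, columns of other series or comparisons by the authors were used. Replicate numbers were not used to pair the arrays in the main fit. Alternatives were another prior, no moderation, array weights, cyclic loess, centring on 2394 bright clusters, a filter on dim clusters, single compartments, the replicate number as a block, the thresholds of the study, other member lists and each array left out.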

Additional observations from a re-analysis of the deposited data

Results flagged for a closer look

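Myc, a transcription factor gene that was looked at with the regulators of ribosomal protein genes, responded differently to DC101 in the compartments by a test of the difference itself. Its difference was 1.96 ± 0.34 log2 units (SE, adjusted p = 0.0447, limma), with 0.49 in tumor MC and −1.47 in peritoneal MC. It had 8.69 and 8.24 under DC101 and 8.01 and 7.94 under placebo in tumor MC. The adjusted p ranged from 0.00782 to 0.236 over the alternatives and missed the threshold with any single array other than peritoneal DC101 replicate 1 left out. No ribosomal protein gene passed the same test.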

How the results depend on the processing

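With 2 arrays per group, precision is limited, and RMA values of dim members cannot be told from background. DC101 against placebo in tumor MC gave 0 members passing under every alternative. In peritoneal MC the count of 1 became 2 with an intensity trend and robust prior, with centring on bright clusters and without dim clusters (each time 2 lower), 2 (1 higher, 1 lower) at the thresholds of the study (unadjusted p, log2 fold change of 1) and 0 without moderation. The count of 0 for the difference between compartments became 1 with the trend, without dim clusters and at the thresholds of the study. The count of 5 for tumor against peritoneal MC became 8 (7 higher, 1 lower) with the trend, 2 at the thresholds of the study and 2 among members above the upper quartile.

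The median for tumor against peritoneal MC was 0.013 with cyclic loess and −0.015 with centring on bright clusters. The next 2 member lists were chosen after seeing the data. Without the 7 members whose neighbouring clusters lay on another chromosome, the median in tumor MC was −0.0016, and the large minus small median was −0.14 in peritoneal MC and 0.035 for the difference between compartments. With members above the upper quartile, the large minus small median was 0.13 in peritoneal MC and −0.18 for the difference between compartments. With ribosomal protein genes outside the symbol pattern, the large minus small median for the difference between compartments was 0.066. In peritoneal MC, 23 of the 28 negative members stayed negative under all of 14 alternatives. In tumor MC 7 of 15 negative and 10 of 19 positive members kept their sign. Most of these alternatives could not move a sign. Another prior, no moderation, array weights, the block and removal of an array of the other compartment leave the difference as it is. Only cyclic loess, centring on bright clusters and removal of an array of the same compartment could move it.

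With each array left out, the medians ranged from −0.29 to −0.23 in peritoneal MC, 0.0053 to 0.075 in tumor MC, 0.22 to 0.34 for the difference between compartments and 0.095 to 0.13 for tumor against peritoneal MC. The counts were 1 in peritoneal MC, 0 in tumor MC, 0 for the difference between compartments and 3 to 6 for tumor against peritoneal MC. Large minus small medians ranged from −0.24 to 0.095 in peritoneal MC, −0.093 to −0.044 in tumor MC, −0.041 to 0.10 for the difference between compartments and 0.085 to 0.18 for tumor against peritoneal MC. Where a group was left with 1 array, that array is assumed to vary like the other groups.

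Deviations of arrays with the same replicate number correlated at −0.16 between the tumor groups and between −0.02 and 0.02 for the other pairs of groups. Whether any arrays of different groups share an origin is not given in the sources. The replicate number as a block left 1 member in peritoneal MC, 0 in tumor MC, 0 for the difference between compartments and 5 for tumor against peritoneal MC. The pairing crossed in tumor MC, added after seeing the data, gave 0. Among single genes, Rps24 passed for the difference between compartments with the trend (adjusted p = 0.0220) and Rpl6 in peritoneal MC with centring on bright clusters (adjusted p = 0.0455). Over these genes and alternatives, 58 values missed the threshold that the reported value passed, 2 newly passed it and 127 stayed on their side. There were 0 changes of sign, although several alternatives do not move the difference itself. The cause of the lost and new calls was not tested. A fit of 1 compartment alone was not run for tumor against peritoneal MC, which needs all groups.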
